A study of Mus musculus with 10 samples.

Results

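The genes described here are the clustered histone genes of the mouse, taken as every gene whose symbol begins with Hist1h, Hist2h, Hist3h or Hist4h. They number 68 of the 23337 genes in the deposited table. By protein type they comprise 6 H1 genes, 18 H2A genes, 19 H2B genes, 12 H3 genes and 13 H4 genes. The H2B genes include Hist3h2bb-ps, annotated as a processed pseudogene. Testis forms, Hist1h1t and Hist1h2ba, are also in the set. By cluster, 54 lie in cluster 1 on chromosome 13, 10 in cluster 2 on chromosome 3, 3 in cluster 3 on chromosome 11 and 1, Hist4h4, on chromosome 6. Members were taken by the name rule alone, though that rule was set with earlier results of these data known.

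RNA was measured in 10 left atrial samples from adult mice, 6 labelled Tbx5 knockout (Tbx5-/-; 3 female, 3 male) and 4 labelled control (wild type, Tbx5+/+; 2 female, 2 male). Tbx5 is a transcription factor gene of the T-box family, active in the atria. Per the labels, Cre recombinase, made inducible by tamoxifen and driven by the ubiquitous R26 promoter, removed exon 3 of Tbx5 in all cell types it reached. Tamoxifen was given for 3 days at 0.167 mg per day and atria were collected 1 week later, from mice of a mixed C57B6 and 129 strain. Age is given as 8 to 10 weeks in the labels and as 6 to 8 weeks in the protocol. The labels do not say whether controls carried Cre or received tamoxifen, so effects of either cannot be told apart from those of the deletion. The labels give 1 animal per library, and libraries are named here by sex and number (M2 is the second male).

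Replication-dependent histone genes supply the core histones H2A, H2B, H3 and H4, which wrap DNA into nucleosomes, and the linker histone H1, which binds the DNA between them. Most are short genes without introns, and their mRNAs end in a stem-loop bound by SLBP in place of a poly(A) tail. They are transcribed mainly in S phase, when newly copied DNA needs histones, while replacement variants such as H3.3 are made throughout the cell cycle. Some of the clustered genes also give polyadenylated transcripts in cells that do not divide. An mRNA kit and total RNA freed of ribosomal RNA are both named in the protocols. Which applies to these libraries is not clear from them, so levels here may hold unequal parts of the stem-loop and polyadenylated forms.

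Assigned reads numbered 5789632 to 7355782 in the knockout libraries and 5701670 to 7697556 in the control libraries. The targeted gene, Tbx5, averaged 1952 ± 336 normalized counts in the libraries labelled knockout and 939 ± 125 in the control libraries (SD, n = 6 and 4). It was higher in those labelled knockout (log2 fold change 1.03 ± 0.14 SE, edgeR quasi-likelihood test, adjusted p = 4.78e-05). A count over the whole gene does not measure the loss of exon 3, so it does not check the labels. Among cardiomyocyte markers, 2 of 8 rose and 5 fell, beside 20.8% and 21.8% of all tested genes. Their summed normalized counts were 314696 to 482468 in knockout and 619352 to 683206 in control libraries. In bulk tissue, more cells of a type and more RNA per cell cannot be told apart.

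Most of the clustered histone genes that could be tested rose in knockout atria. Of 54 tested, 45 rose, 3 fell and 6 did not pass an adjusted p of 0.05 (edgeR quasi-likelihood test, Benjamini-Hochberg adjustment over 13191 genes). Over all genes tested, 42.6% passed, with 20.8% higher and 21.8% lower. When libraries were scaled by size alone, 29.9% of all genes rose and 15.3% fell, the median log2 fold change of all genes moved to 0.14, and 48 histone genes rose and 3 fell. The median log2 fold change of the 54 was 2.65, against -0.00092 over all genes tested. The groups did not overlap for 46 histone genes, 44 with the knockout libraries above and 2 with them below, against 31.3%, 16.3% and 15% of all genes tested.

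Of the 14 histone genes not tested, 6 had no read in any library (Hist1h2ao, Hist1h2ap, Hist1h2bq, Hist1h2br, Hist1h4m and Hist2h2aa2). The read length was 51 bases. A median of 93.3% of the 51-base windows of these 6 genes occurred exactly, on either strand, in a transcript of another gene. The other 8 had too few reads. Among them was Hist1h1t, the testis form of H1, which averaged 4.62 ± 2.95 normalized counts in knockout and 0.507 ± 0.602 in control libraries. A gene entered the test with at least 1.52 RPM (reads per 1000000 assigned reads) in 4 libraries, and 14 of the 54 reached that level in no control library. Those 14 could enter only through the knockout libraries and so had to differ. They were the H2A genes Hist1h2ad, Hist1h2af, Hist1h2ag, Hist1h2ah and Hist1h2an and the H2B genes Hist1h2bf, Hist1h2bh, Hist1h2bk, Hist1h2bm and Hist1h2bn. The H3 genes Hist1h3c, Hist1h3g, Hist1h3h and Hist1h3i were the others. Of the 54, Hist1h2ba was the only one that entered through the controls alone.

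Of the 54, 19 had at least 10 reads in every control library, a cutoff chosen after the values were seen. It removes genes that are near 0 in controls and so lowers the median by its construction. Of these, 12 rose, 3 fell and 4 did not pass, with a median log2 fold change of 0.75. Of the 12168 genes of the whole table that met the same condition, 19% rose and 23.4% fell.

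**Figure D1:**
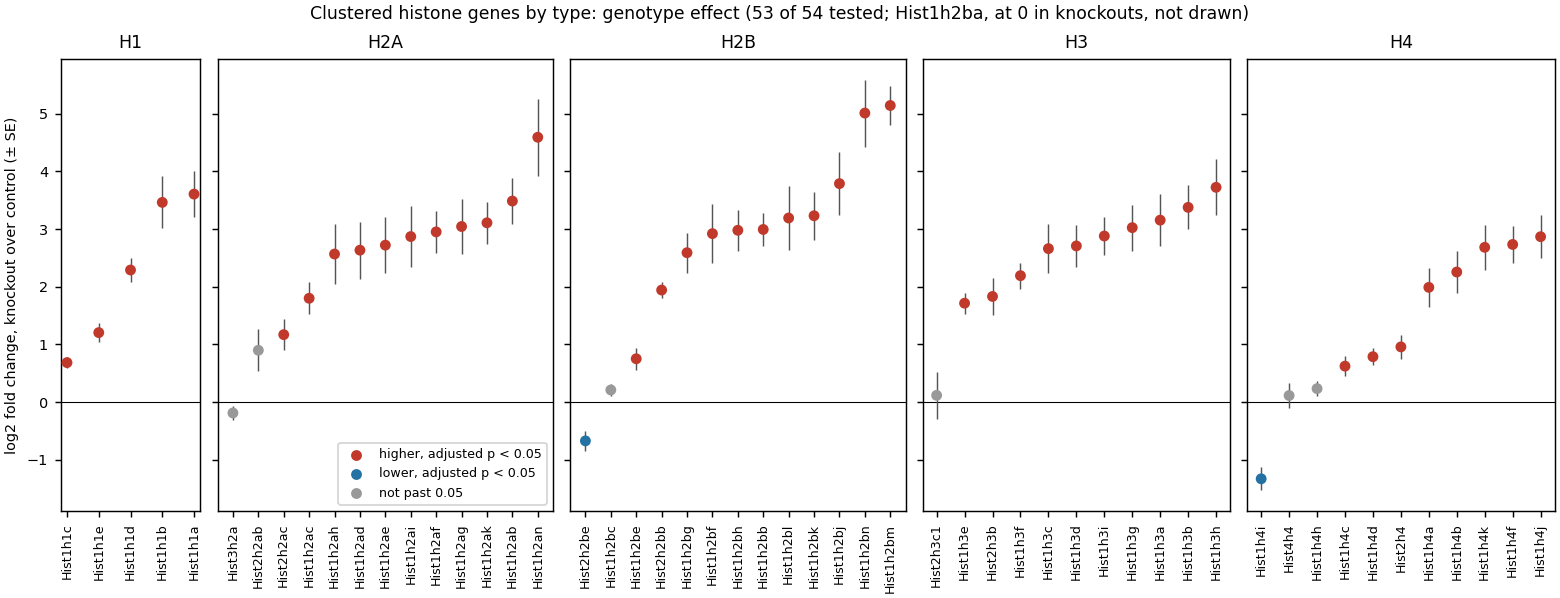
Log2 fold change (knockout over control, points, with SE as bars) of each tested clustered histone gene, in a panel per protein type and ordered by size, coloured by the call. Hist1h2bm stands highest at 5.14 and Hist1h4i lowest at -1.33; Hist1h2ba, with no read in the knockout libraries, is not drawn.

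Summed over all 68 genes, histone reads made up 1307 ± 280 RPM in knockout libraries and 512 ± 81.9 in control libraries (SD, n = 6 and 4), a ratio of 2.55. The sums do not depend on how counted reads were divided among the 68 genes. Any reads not counted because they match several genes would be missing from the sums, and how such reads were treated is not given. For 11 of the 68 genes, the gene sharing the most read-length windows lies outside the set, Hist2h2bb among them. Without those 11, the sums were 1088 ± 242 RPM in knockout and 420 ± 73.5 RPM in control libraries, a ratio of 2.59. The sums over all 68 genes ran from 1021 to 1813 RPM in knockout libraries and from 415 to 613 in control libraries, so the groups did not overlap. By type the ratio was 5.56 for H3, 2.85 for H2B, 2.58 for H1, 2.49 for H2A and 1.84 for H4. H3 genes took 8.01% ± 0.61 of histone reads in knockout and 3.64% ± 0.75 in control libraries. H4 genes took 18.8% ± 0.46 in knockout and 26.2% ± 2.4 in control libraries. H1 genes took 39.1% ± 1.4 in knockout and 38.4% ± 1.3 in control libraries.

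**Figure D2:**
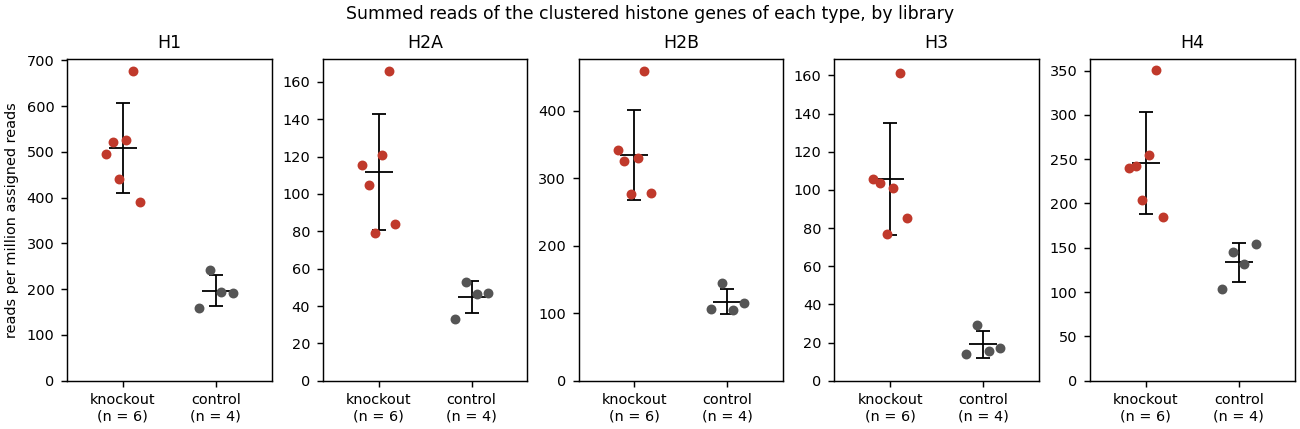
RPM (reads per 1000000 assigned reads) summed over the clustered histone genes of each type, with 1 point per library and the mean ± SD as a cross; knockout on the left (n = 6), control on the right (n = 4). In all 5 panels the lowest knockout library lies above the highest control library, and the highest knockout point is male M2 (161 for H3, where controls reach 29.2).

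Cluster 1 held most of this difference in reads. Its genes summed to 1059 ± 236 RPM in knockout and 395 ± 69.2 in control libraries, a ratio of 2.68, and 41 of its 45 tested genes rose while 2 fell. Cluster 2 had a ratio of 2.87, at 197 ± 40 RPM in knockout and 68.7 ± 10.3 RPM in control libraries, with 4 of 7 tested genes higher and 1 lower. A large part of its reads were those of Hist2h2bb, whose read-length windows all occur in other genes too. Without Hist2h2bb, cluster 2 summed to 52.6 ± 14.8 RPM in knockout and 34.6 ± 6.17 RPM in control libraries, a ratio of 1.52 with overlapping groups, and the H2B genes had a ratio of 2.28. Cluster 3 summed to 30.8 ± 5.21 RPM in knockout and 31.3 ± 4.31 in control libraries, and the groups overlapped. Within cluster 1, stretches separated by gaps over 100000 bases were set apart after the values were seen. The stretch chr13:21715763-21837530 (GRCm38) had 11 of 11 tested genes higher and a median log2 fold change of 3.19. Of these, Hist1h2an, Hist1h2bm, Hist1h2bn, Hist1h3h and Hist1h3i reached the entry level of the test in no control library and so had to differ. In chr13:23531050-23764406, 26 of 28 were higher with a median of 2.61, and Hist1h2ad, Hist1h2af, Hist1h2bf, Hist1h2bh, Hist1h3c and Hist1h3g had to differ likewise. In chr13:22035164-22043676, 4 of 5 were higher and 1 lower with a median of 3.05, and Hist1h2ag, Hist1h2ah and Hist1h2bk had to differ. In chr13:23933773-23934851 the 1 tested gene, Hist1h2ba, fell. These medians were not compared by a test.

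Linker histone genes all rose where tested, by very different amounts. Hist1h1c encodes an H1 subtype that is also made outside S phase. It had 1304 to 1739 normalized counts (median 1527) in knockout libraries, against 785, 1025, 982 and 938 in control M1, M2, F1 and F2. Its log2 fold change was 0.69 ± 0.10 (adjusted p = 0.00012). It had the most reads of any member in both groups, with 19.1% of histone reads in knockout and 27.2% in control libraries.

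Hist1h1a, an H1 subtype found mainly in proliferating cells, had 237 to 573 normalized counts (median 331) in knockout libraries, against 8.28, 62.7, 19.7 and 16.7 in control M1, M2, F1 and F2. Its log2 fold change was 3.61 ± 0.39 (adjusted p = 1.2e-05), and none of its read-length windows occurred in another gene. Hist1h1b, also without shared windows and named after its values were seen, averaged 272 ± 92.3 in knockout and 22.3 ± 24.5 in control libraries (log2 fold change 3.46 ± 0.45). Hist1h1d had 254 to 538 (median 366) in knockout libraries, against 62.7, 102, 63.6 and 65.9 in control M1, M2, F1 and F2. Control M2 stood above the other controls for Hist1h1a, Hist1h1b and Hist1h1d. Hist1h1d had a log2 fold change of 2.29 ± 0.21. Hist1h1e averaged 635 ± 152 in knockout and 270 ± 48.8 in control libraries (log2 fold change 1.21 ± 0.17), but it overlaps Hist1h2be on the same strand, so their reads may be mixed.

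H2A genes form nucleosome dimers with H2B, and 11 of 13 tested H2A genes rose. Of those that rose, Hist1h2ad, Hist1h2af, Hist1h2ag, Hist1h2ah and Hist1h2an reached the entry level in no control library and so had to differ. Hist1h2ab had 55.0 to 182 normalized counts (median 86.4) in knockout libraries, against 5.91, 13.5, 3.47 and 8.37 in control M1, M2, F1 and F2. The groups lay far apart, with a log2 fold change of 3.49 ± 0.41 (adjusted p = 1.87e-05). Hist1h2ak averaged 98.9 ± 29.3 in knockout and 10.6 ± 8.03 in control libraries (log2 fold change 3.11 ± 0.37). Hist2h2ac, of cluster 2, averaged 73.3 ± 29.7 in knockout and 31.9 ± 3.25 in control libraries (1.17 ± 0.27, adjusted p = 0.00353). Hist2h2ab did not pass (18.1 ± 7.52 in knockout and 9.41 ± 3.91 in control libraries, log2 fold change 0.90 ± 0.36, adjusted p = 0.0600). Neither did Hist3h2a, the H2A gene with the highest mean count over all libraries, at 187 ± 22.7 in knockout and 209 ± 32.5 in control libraries (log2 fold change -0.19 ± 0.12, adjusted p = 0.239). It overlaps Trim17 on the same strand, so reads of both genes may be mixed.

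H2B genes held the highest and the lowest fold changes of all members. Hist1h2bm (chr13:21722044-21722567, GRCm38, plus strand, protein-coding) had 67.4 to 136 normalized counts (median 94.1) in knockout libraries, against 2.37, 3.39, 1.16 and 3.14 in control M1, M2, F1 and F2. The lowest knockout library was far above the highest control library. Its log2 fold change was 5.14 ± 0.34 (adjusted p = 2e-07). Hist1h2bm reached the entry level of 1.52 RPM in no control library, so it is among the 14 genes that had to differ. Hist2h2bb had the highest mean count of the H2B genes over all 10 libraries, though in controls it was below Hist1h2bc. It had 744 to 1196 (median 868) in knockout libraries, against 197, 238, 219 and 267 in control M1, M2, F1 and F2. Its log2 fold change was 1.94 ± 0.14 (adjusted p = 5.36e-07). All of its read-length windows also occur in other annotated transcripts that overlap it, so it is uncertain which gene its reads belong to. Hist1h2bb averaged 226 ± 67.9 in knockout and 26.9 ± 13 in control libraries (log2 fold change 2.99 ± 0.28).

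Hist1h2bc, at 368 ± 40 in knockout and 312 ± 27.6 in control libraries, did not pass (log2 fold change 0.21 ± 0.10, adjusted p = 0.106). Hist2h2be (chr3:96221119-96223738, plus strand) fell. It had 56.0 to 94.4 normalized counts (median 63.0) in knockout libraries, against 88.7, 135, 99.5 and 112 in control M1, M2, F1 and F2. The groups overlapped by the highest knockout and the lowest control library, and the log2 fold change was -0.67 ± 0.17 (adjusted p = 0.00602). None of its windows occurred in another gene. In males alone its log2 fold change was -0.53 with adjusted p = 0.226.

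Hist1h2ba (chr13:23933773-23934156, minus strand), which encodes the testis-specific form of H2B, fell where most of its cluster rose. It had 0 reads in each of the 6 knockout libraries and 18, 33, 20 and 10 reads in control M1, M2, F1 and F2. It was the only gene of the table with no knockout read and at least 10 reads in every control. It entered the test through the control libraries alone and so had to differ. With a floor of 3 counts over the knockout group, it was at least 40.8-fold lower in knockout libraries, and the adjusted p was 5.31e-05. With the gene at that bound, -5.35 on the log2 scale, the median of the 54 stayed at 2.65. Of its windows, 38.0% occurred in another gene's transcript, so part of its reads could have come from another copy. The gene sharing the most of them, Hist1h2bj, averaged 58.9 ± 21.4 normalized counts in knockout and 3.70 ± 4.83 in control libraries. Where the reads of Hist1h2ba came from was not tested. Without control M2 and knockout M2 together Hist1h2ba had too few reads to be tested.

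**Figure D3:**
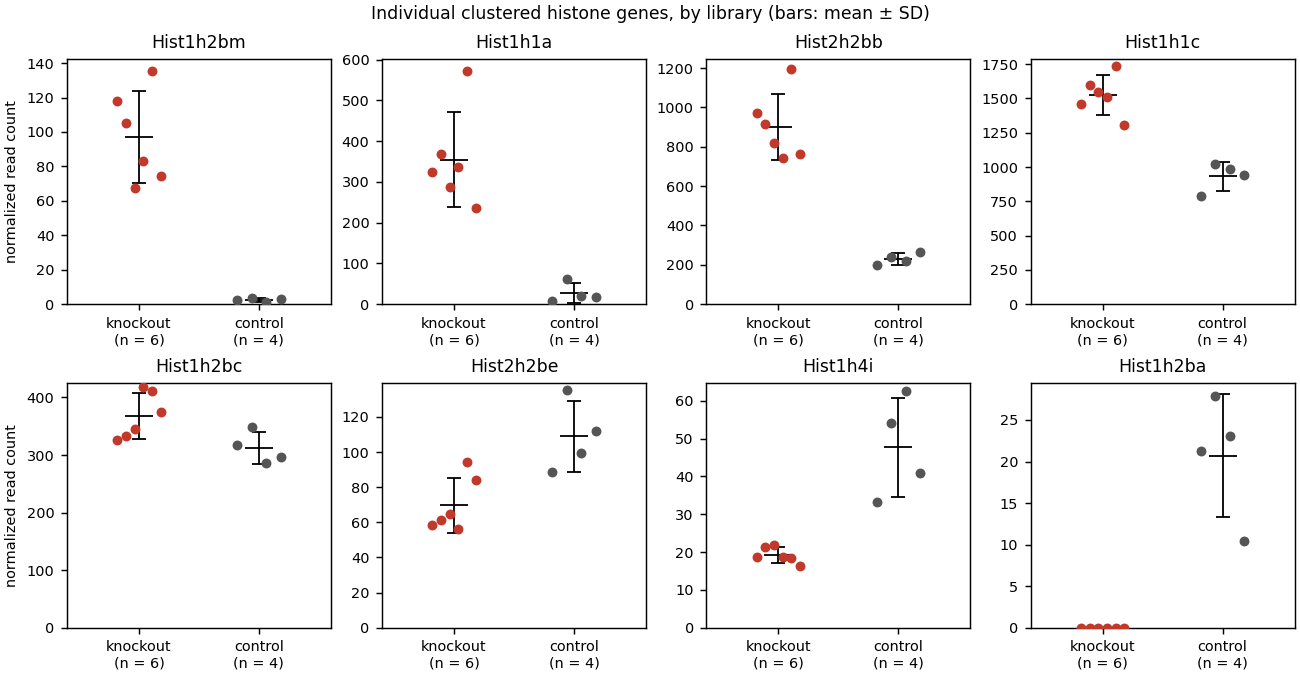
Normalized read counts of 8 clustered histone genes, with 1 point per library and mean ± SD as crosses, knockout on the left and control on the right; each panel has its own axis from 0. Hist1h2bm, Hist1h1a, Hist2h2bb and Hist1h1c lie wholly above the controls in knockout libraries, Hist1h2bc and Hist2h2be overlap, and Hist1h4i and Hist1h2ba lie wholly below.

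H3 genes rose in 10 of 11 tests, and the sum of this type had the highest ratio of the 5 types. Of those that rose, Hist1h3c, Hist1h3g, Hist1h3h and Hist1h3i reached the entry level in no control library and so had to differ. Hist1h3f had 108 to 221 normalized counts (median 140) in knockout libraries, against 22.5, 44.0, 26.6 and 31.4 in control M1, M2, F1 and F2. Its log2 fold change was 2.19 ± 0.22 (adjusted p = 7.91e-06). Hist1h3b averaged 105 ± 33.1 in knockout and 9.15 ± 8.58 in control libraries (log2 fold change 3.38 ± 0.38). Hist1h3e averaged 102 ± 18.1 in knockout and 30.2 ± 6.52 in control libraries (1.72 ± 0.18). Hist1h3d averaged 56.7 ± 23.0 in knockout and 8.12 ± 4.20 in control libraries (2.71 ± 0.36). Hist2h3c1 of cluster 2 did not pass, at 12.8 ± 7.14 in knockout and 11.4 ± 3.96 in control libraries.

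H4 genes had the lowest median log2 fold change of the types, 0.96, with 8 of 11 tested higher and 1 lower. The medians of the H2A, H2B and H3 genes include genes that had to differ because of the entry level. Hist1h4d had 327 to 574 normalized counts (median 410) in knockout libraries, against 216, 246, 213 and 295 in control M1, M2, F1 and F2 (log2 fold change 0.79 ± 0.15, adjusted p = 0.000698). Hist1h4c averaged 250 ± 61.6 in knockout and 159 ± 34.8 in control libraries (0.62 ± 0.18, adjusted p = 0.0122), with overlapping groups, and did not pass in either sex alone (adjusted p = 0.0600 in females and 0.0713 in males). Hist1h4h (275 ± 40.4 in knockout and 230 ± 40.7 in control) and Hist4h4 (125 ± 28.9 in knockout and 114 ± 42.3 in control) did not pass. Hist1h4i, named after its values were seen, fell: it had 16.4 to 21.8 (median 18.7) in knockout libraries, against 33.1, 54.2, 62.5 and 40.8 in control M1, M2, F1 and F2. These groups did not overlap, and the log2 fold change was -1.33 ± 0.20 (adjusted p = 0.000152).

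Many H2A and H2B genes lie head to head over a short shared promoter. Of 13 such pairs, starting within 500 bases of each other, 8 had both genes tested and 6 of these had both higher. Among those 6 pairs, the partners lay farthest apart in Hist1h2ak (log2 fold change 3.11) and Hist1h2bn (5.01). Of the genes in those 6 pairs, Hist1h2ad, Hist1h2ag, Hist1h2ah, Hist1h2bf, Hist1h2bk and Hist1h2bn reached the entry level in no control library. These genes could enter the test only through the knockout libraries and so had to differ. In the other 2 pairs only the H2A gene rose. Hist2h2ac (log2 fold change 1.17) and Hist2h2be (-0.67) start 238 bases apart, and 54.5% of the windows of Hist2h2ac occur in another gene's transcript. Hist1h2ac (1.80) and Hist1h2bc (0.21) start 250 bases apart. The log2 ratio of Hist2h2ac to Hist2h2be was 1.75 higher in knockout than in control libraries, and that of Hist1h2ac to Hist1h2bc 1.59 higher. In each of these pairs the 6 knockout ratios lay above the 4 control ratios, and the exact 2-sided permutation p was 0.00476, the smallest that 210 splits can give here. Adjusted over the 8 pairs it was 0.0190. The ratio of Hist1h2ak to Hist1h2bn was 1.38 lower (difference -1.38, adjusted p = 0.0254) and that of Hist1h2bl to Hist1h2ai 1.09 higher (0.0476), both with few reads in controls. Hist1h2bn reached the entry level of the test in no control library, which by construction favours a lower ratio of Hist1h2ak to Hist1h2bn in knockout libraries. The other 4 pairs had adjusted p from 0.0533 to 0.910. These ratios, with 0.5 counts added, were tested after the fold changes had been seen.

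**Figure D4:**
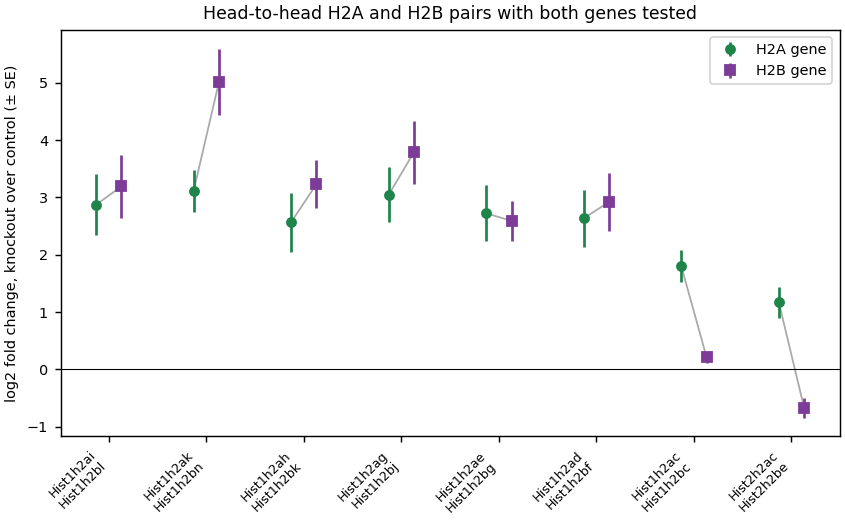
Log2 fold change (knockout over control, with SE) of the H2A gene (circles) and the H2B gene (squares) of each head-to-head pair in which both were tested. The partners lie farthest apart in Hist1h2ak (3.11) with Hist1h2bn (5.01), where the H2B gene is higher, and next in the 2 pairs at the right, where the H2A gene is higher.

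The promoters shown are those of the genes with the highest and the lowest fold change, Hist1h2bm and Hist1h2ba, and of Hist2h2ac, whose partner fell. They are 250 bases before the RefSeq start on GRCm38.p6, written 5' to 3' on the gene's strand, with matches in capitals, on either strand, to the CCAAT box, to the TATA box in its form TATAAA, to the octamer ATTTGCAT and to the H1 box AAACACA (its complement reads TGTGTTT). That of Hist2h2ac spans the 238 bases it shares with Hist2h2be.
Hist1h2bm, chr13:21721794-21722043 (+): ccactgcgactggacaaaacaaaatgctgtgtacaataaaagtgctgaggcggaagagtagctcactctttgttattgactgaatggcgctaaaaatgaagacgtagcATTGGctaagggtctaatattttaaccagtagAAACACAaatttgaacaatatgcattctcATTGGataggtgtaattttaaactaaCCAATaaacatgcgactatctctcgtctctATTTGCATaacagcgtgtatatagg
Hist2h2ac, chr3:96220881-96221130 (-): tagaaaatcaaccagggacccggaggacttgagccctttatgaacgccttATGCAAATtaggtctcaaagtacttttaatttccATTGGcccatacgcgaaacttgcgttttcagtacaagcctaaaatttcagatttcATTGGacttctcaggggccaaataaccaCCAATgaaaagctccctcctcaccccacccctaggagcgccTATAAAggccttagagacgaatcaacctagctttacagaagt
Hist1h2ba, chr13:23934157-23934406 (-): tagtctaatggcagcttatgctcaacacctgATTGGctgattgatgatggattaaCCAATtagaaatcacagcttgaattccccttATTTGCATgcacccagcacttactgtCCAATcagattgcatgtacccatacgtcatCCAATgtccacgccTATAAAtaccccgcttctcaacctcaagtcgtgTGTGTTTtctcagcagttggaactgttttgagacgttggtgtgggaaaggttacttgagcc

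CCAAT, on either strand, occurred in 82.3% of the 62 members with a promoter entry, against 33.8% of all 32851 promoters of the same length. It was in all 6 H1, 18 H2A and 16 H2B promoters, in 8 of 10 H3 promoters and in 3 of 12 H4 promoters. It was in 38 of the 42 promoters of genes that rose and in 3 of the 7 of tested genes that did not rise. Those of the 7 without it were Hist2h3c1 and the H4 genes Hist1h4h, Hist1h4i and Hist4h4, and few H4 promoters of any call held it. Hist2h2be and Hist1h2bc, which also did not rise, have no promoter entry and were not counted. A link of CCAAT to the call was not tested. TATAAA occurred in 46.8% of member promoters and 12.4% of all promoters. The octamer occurred in 7 of 18 H2A and 7 of 16 H2B promoters and in no other type, against 1.6% of all promoters. The H1 box occurred in 5 of 6 H1 promoters, against 6.25% of all. All of the promoters shown hold CCAAT and the octamer, though Hist1h2bm rose and Hist1h2ba fell. A T-box core, GGTGTGA on either strand, searched after the data were seen, occurred in no member promoter and in 3.33% of all. None of these motifs contains another, and no match says only that these letters are not in this window.

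Near-identical copies and overlapping transcripts limit how far single genes can be read. A median of 49.0% of the read-length windows of the tested members occurred in another gene's transcript. Matches on either strand were counted, both in copies elsewhere and in other genes' transcripts that overlap the member. The 8 tested genes with under 10% of windows shared had 6 higher and 1 lower, with a median log2 fold change of 0.87, and the other 46 had 39 higher and 2 lower, with a median of 2.70. Tested genes with over 1000 exonic bases, 15 in number, had 10 higher and a median of 0.79. The 39 shorter ones had 35 higher and a median of 2.87. Both divisions were made after the values were seen and overlap each other, since long transcripts share fewer windows. All 14 genes that reached the entry level of the test in no control library were among the 46, and all but Hist1h2bh among the 39.

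Other genes of histone supply were counted beside the 20.8% of all tested genes that rose and the 21.8% that fell, and their counts, of few genes each, were not tested against these shares. Of 10 tested replacement variants and unclustered histones, 3 rose and 7 did not pass, with a median log2 fold change of 0.18. H2afx, the variant phosphorylated at DNA breaks, averaged 73.4 ± 27.9 normalized counts in knockout and 25.1 ± 7.90 in control libraries (log2 fold change 1.50 ± 0.29, adjusted p = 0.000882). H3f3b, which encodes H3.3, averaged 761 ± 70.0 in knockout and 526 ± 58.5 in control libraries (0.51 ± 0.10, adjusted p = 0.000939), and H2afz 22.1 ± 3.33 in knockout and 12.0 ± 5.55 in control libraries (0.87 ± 0.28, adjusted p = 0.0223). Of 12 tested genes for histone mRNA transcription and processing, Slbp, the stem-loop binding protein, was the only one that rose (134 ± 17.4 in knockout and 79.0 ± 10.9 in control; 0.74 ± 0.13). Npat, the coactivator of histone gene transcription, fell (133 ± 17.8 in knockout and 194 ± 17.4 in control; -0.56 ± 0.12), as did Casp8ap2 (-0.79 ± 0.16). Among 13 histone chaperones, 3 rose: Chaf1a (1.42 ± 0.26) and Chaf1b (2.92 ± 0.43), of the complex that deposits histones on replicating DNA, and Asf1b (2.29 ± 0.25). Asf1a (-0.39 ± 0.11) and Atrx (-1.29 ± 0.12), which acts with H3.3, fell.

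Genes of the cell cycle rose as well, in lists chosen with earlier results of these data known. Over all genes tested, 20.8% rose and 21.8% fell. Of 27 genes of S phase and DNA replication, 24 rose and 3 did not pass, with a median log2 fold change of 1.32. Uhrf1, which maintains DNA methylation at replication, averaged 119 ± 43.5 in knockout and 12.0 ± 7.48 in control libraries (3.22 ± 0.35). Mcm5, of the replicative helicase, averaged 213 ± 52.9 in knockout and 43.8 ± 24 in control libraries (2.22 ± 0.27). All 12 genes of G2 and mitosis rose, with a median of 3.17. In these lists at least Mcm10, Gins2, Ccnb1 and Aurkb reached the entry level of the test in no control library. Such genes could enter only through the knockout libraries and so had to differ. Cdk1, the mitotic kinase, averaged 237 ± 89.9 in knockout and 15.1 ± 7.11 in control libraries (3.89 ± 0.33).

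Knockout M2 and control M2 had the most histone reads of their groups, 1813 and 613 RPM. Knockout M2 was the highest knockout library for 44 of the 45 histone genes that rose, and control M2 the highest control for 37. The same libraries had the highest sums of S phase genes, 4236 and 1762 normalized counts, and of G2 and mitosis genes, 3091 and 367. Those sums ran from 2366 to 4236 in knockout and 1207 to 1762 in control libraries for S phase, and from 1116 to 3091 in knockout and 118 to 367 in control libraries for G2 and mitosis. They also had the highest sums of their groups for fibroblast markers (105189 and 34647 normalized counts), for macrophage and monocyte markers (10664 and 4191), for neutrophil markers (32.1 and 17.8), for replacement variants (3050 and 2493) and for genes of histone mRNA transcription and processing (2630 and 2503). Without both M2 libraries, 45 of 53 tested histone genes rose and 2 fell, beside 17.8% and 18.1% of all genes tested.

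Markers of other cell types were counted beside the 20.8% of all tested genes that rose and the 21.8% that fell. Their counts, of few genes each, were not tested against these shares. All 9 tested macrophage and monocyte markers rose (sums of 6979 to 10664 normalized counts in knockout and 2973 to 4191 in control libraries). Of 8 fibroblast markers, 6 rose and 1 fell (67612 to 105189 in knockout and 30402 to 34647 in control). Of 8 endothelial markers, 4 rose and 2 fell (16241 to 18894 in knockout and 11140 to 13641 in control), and of 8 smooth muscle and pericyte markers 6 rose (4929 to 6064 in knockout and 3055 to 3840 in control). Lymphocyte markers summed to 14.7 to 29.4 in knockout and 15.0 to 30.7 in control libraries, with 1 of 8 tested, Cd4, which did not pass. Of neutrophil markers 1 of 5 was tested, and it rose (12.4 to 32.1 in knockout and 2.31 to 17.8 in control). The part of any of these cells in the histone result was not tested.

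A difference of the genotype effect between the sexes was called for none of the 54 histone genes (edgeR interaction test, lowest adjusted p = 0.599), with 2 under an unadjusted p of 0.05, and no other tool was run on it. It was called for 0.205% of all genes. With 2 to 3 animals per sex and genotype, this does not show that the sexes responded alike.

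The authors' deposited table, on its own adjusted p at the same threshold, lists 46 of 59 histone genes as higher and 3 as lower, against 18.7% and 17.8% of the 15796 genes it gives an adjusted p. Its log2 fold change for Hist1h2ba is -3.71.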

How the data were processed

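RNA of 10 left atria was sequenced as single-end reads of 51 bases after globin depletion, per the labels' protocols. Per the submitters' processing notes, the authors used FastQC, TopHat2 2.0.11, featureCounts and DESeq2 on build mm10. How genes were annotated, whether strand was used and how reads matching several genes were treated is not given in the sources used here. The authors deposited raw counts per gene and library. The deposited normalized signal is each count over the size factor of its library. The deposited log2 fold change, its linear ratio (fold), the Wald score and the p-value are the authors' own comparison.

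Levels in the report are deposited normalized counts (mean ± SD). Histone sums are raw counts scaled to RPM, so counting error is small for sums and large for genes with a few reads. Samples were grouped by their titles. Tests ran on raw counts in edgeR 4.0.16 (R 4.3.3) with filterByExpr, TMM scaling, the quasi-likelihood F-test and Benjamini-Hochberg adjustment at 0.05 over 13191 genes. Sex differences came from an interaction term. The scripts were first tested on simulated data. No replicates agreed within sampling noise (lowest chi-square per degree of freedom 4.34). Libraries are labelled as separate animals, and no batch is given.

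Positions and window sharing came from GENCODE M21 (GRCm38, which is mm10), matched for all 68 genes. Promoters came from RefSeq, matched for 62.

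Members were taken by the name rule alone, but that rule and the lists were set with earlier results of these data known. Named are the 4 most abundant tested genes of each type, the 8 with the smallest adjusted p, the tested genes of clusters 3 and 4, the lowest and highest fold change, and up to 4 genes of other lists. Other genes are named with counts of 5 or fewer, for absence of reads, for an overlap or a pair, or as stated. Alternatives were RLE, upper-quartile and library size scaling, DESeq2 1.42.0, limma-voom (limma 3.58.1), no minimum count or a minimum of 50 counts in 4 libraries, covariates for sex or for the replicate block, fits of 1 sex, a threshold of 0.1, a minimum absolute log2 fold change of 1, and each library left out. Leaving out both M2 libraries, the condition on control reads, and sums without Hist2h2bb or without genes that share windows mainly with non-members, were chosen after seeing the data.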

Additional observations from a re-analysis of the deposited data

Results flagged for a closer look

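In 9 of 56 sets of values (the named histone genes and the sums over all members and by type, each within 1 group of 4 or 6 libraries), a single library stood apart from the rest. Dixon's criterion was used at the 95% level, which chance meets in about 1 of 20 for a single set. The sets share libraries and genes, so they are not independent and 9 of 56 cannot be set against that share. The knockout values of Hist1h2ba, all 0, are in the 56 but could not be judged. All 9 that stood apart were male M2 libraries. Knockout M2 stood above the other knockout libraries for Hist1h2ab (182 normalized counts, the others 55.0 to 89.3), Hist1h3f (221, the others 108 to 150), Hist1h3b (170, the others 79.6 to 107), Hist1h3d (102, the others 38.4 to 56.8) and Hist1h4c (367, the others 193 to 252). It also stood above them in the summed H2B reads (459 RPM, the others 276 to 342) and H3 reads (161, the others 76.7 to 106). Control M2 stood above the other control libraries for Hist1h1d (102 normalized counts, the others 62.7 to 65.9) and Hist1h3b (22.0, the others 4.63 to 5.23).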

How the results depend on the processing

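Against 45 histone genes higher and 3 lower in the report, leaving out each library in turn gave 44 to 46 higher and 3 lower. Over all genes in those fits, 18.1% to 23.2% were higher and 17.3% to 23.2% lower. The replicate block gave 45 higher and 3 lower, beside 19.7% and 21.3% of all genes. Equal labels did not pair the samples, since the correlation of their deviations was -0.037, 0.17, -0.13 and -0.051 for M1, M2, F1 and F2, and the labels name no shared litter or day. DESeq2 gave 46 and 3, beside 15.9% higher and 15.1% lower of all genes in that fit. With limma-voom the counts were 45 and 3 (20.4% and 22.3% of all genes). Females alone gave 43 and 4 (17.6% and 19.8%), and males alone 42 and 2 (8.14% and 7.48%). An absolute log2 fold change above 1 gave 40 and 2 (6.26% and 5.36%). At least 50 counts in at least 4 libraries left 28 histone genes to test, of which 23 rose and 1 fell. With that filter 22.5% of all genes rose and 22.6% fell, and 15 S phase genes were higher. Without knockout M2, 1 S phase gene fell (0 to 1 over the libraries left out). Scaling by library size alone gave 5 replacement variants higher, beside 29.9% of all genes. Among named genes, Hist3h2a turned to 0.11 on the log2 scale in males alone, and Hist4h4 to -0.32 in females alone, -0.043 without control M1, -0.0032 without knockout M2 and -0.044 without both M2 libraries. Neither gene passed in the report. Hist3h2a fell in females alone (-0.45, adjusted p = 0.0153), Hist1h2bc rose with library size scaling (0.35, adjusted p = 0.0209), Hist1h4h rose with it (0.38, 0.0378) and without control F2 (0.37, 0.0429), and Hist2h2ac did not pass in females alone (0.67, 0.0596). Hist2h2ab passed with upper-quartile or library size scaling and without knockout F2 or M1 (adjusted p = 0.0320 to 0.0484). The cause of these changes was not tested, except that a stricter filter and fewer samples leave fewer genes or animals in the test. Genes with a few reads per control library have fold changes with a large counting error.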
